A study of Mus musculus with 2 samples.

Results

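CD3-expressing cells with NK receptors are barcodes that hold transcripts of the CD3 complex and of natural killer (NK) receptors together, among CD45+ cells sorted from B16F10 tumors, a mouse melanoma. A barcode was a member when it had at least 2 UMIs (unique molecular identifiers, each 1 captured transcript) of Cd3e, Cd3d and Cd3g summed, and at least 2 of Ncr1, Klrb1c and Klre1 summed. It also had no Foxp3 UMI, at most 2 UMIs of Pdcd1, Lag3, Havcr2 and Tigit, at most 2 of Mki67 and Top2a, at most 2 of the C1q genes and at most 1 of Cd79a and Cd79b. Of 13817 barcodes, 12815 had at least 200 genes and at most 10% mitochondrial UMIs and were kept. Of these, 189 were members, 102 from the control and 87 from the labelled knockout, as the 2 libraries are called here. The members were thus chosen by measured UMI counts of the genes named in these conditions.

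Both groups were C57BL/6 mice with floxed Usp18 alleles, Usp18f/f in the control group and Usp18f/f LysM-Cre in the other. Usp18 removes the modifier ISG15 from proteins and restrains signalling from the type I interferon receptor. Cre is expressed from the Lyz2 locus, which is active in macrophages, monocytes and neutrophils, so lymphoid cells are not the cells in which deletion is intended. Tumors were taken on day 14, and 4 tumors per group were pooled into 1 library, so no group has a replicate. No test between the libraries exists, all intervals below are 95% intervals that cover counting error only, and no difference between the libraries has a replicate check.

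The CD3 proteins carry the signal of the T-cell receptor and are absent from the surface of NK cells. NK cells instead read their targets through germline-encoded receptors, among them the lectin-like Ly49 (Klra) and NKG2 (Klrc, Klrk1) families and NKp46 (Ncr1), many of which signal through the adaptors Tyrobp and Fcer1g. Several kinds of T cell carry both systems: invariant NKT cells, gamma-delta T cells and antigen-experienced or innate-like CD8 T cells.

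The members' summed UMIs came to 343100 in the control and 326612 in the labelled knockout, with medians of 2551.5 and 2962 UMIs per barcode. Levels are given as CPM (counts per 1000000), the UMIs of a gene scaled to the total UMIs of the summed barcodes. For a count of 0 a limit of 3 UMIs was set, which is 8.74 and 9.19 CPM. This limit lies below the upper end of the Poisson intervals used for levels. No barcode sequence was shared between the members of both libraries, although 8 were shared over all barcodes. A doublet caller marked 5 and 3 members. Xist without Y-linked transcripts was seen in 37 control members and in 69 of the labelled knockout, and Y-linked transcripts without Xist in 28 and 5, so the libraries differ in the sex of the cells and this cannot be told apart from genotype.

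Values of the 6 genes that chose the members are a description only. The Cd3 sum had a median of 4 UMIs in the control and 6 in the labelled knockout, with highest values of 20 and 23. The NK receptor sum had a median of 3 in each, with highest values of 9 and 15. Klre1, a lectin-like receptor, gave 241 and 176 of these UMIs, Klrb1c, which encodes NK1.1, 79 and 87, and Ncr1 29 and 41. Just inside the limits lay 12 and 10 barcodes with a Cd3 sum of 2, and just outside lay 8 and 12 with a sum of 1 that met every other condition. On the other axis, 40 and 35 barcodes had an NK receptor sum of 2, and 88 and 55 had a sum of 1. The barcodes just below the NK receptor limit held Klra7 at 266 CPM in the control and 88.8 CPM in the labelled knockout, against 265 and 209 CPM just above it and 24.7 and 46.0 CPM at a sum of 0. In the control the step at the limit therefore did not separate barcodes by Klra7, while the step from 0 to 1 did.

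**Figure D1:**
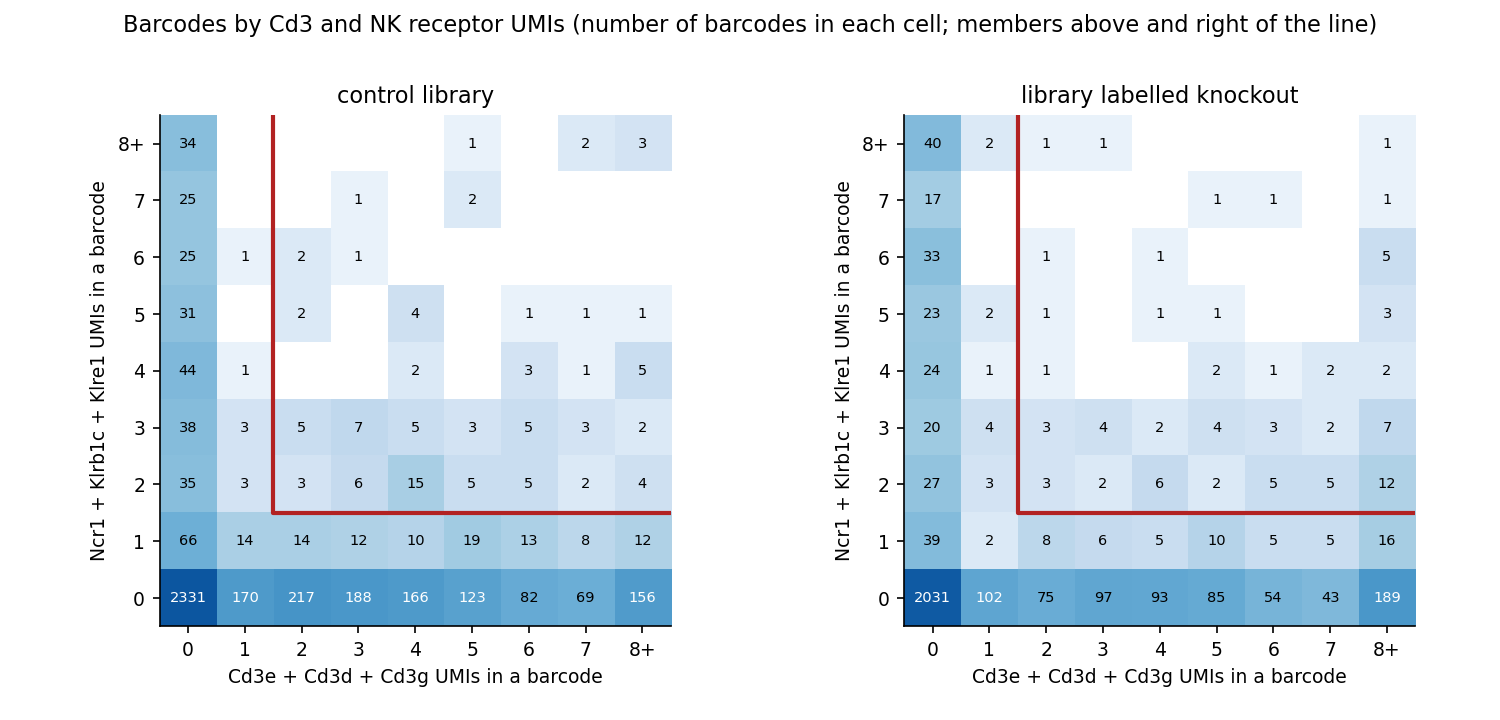
Number of barcodes at each Cd3 UMI sum (x axis) and NK receptor UMI sum (y axis), left the control and right the labelled knockout, among kept barcodes that met the other conditions; 8+ pools sums of 8 and over. Members lie above and to the right of the line, between 232 and 184 NK cells at a Cd3 sum of 0 and 1001 and 636 T cells at an NK receptor sum of 0.

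The 2 comparators, NK cells and T cells, met all other conditions of the rule. NK cells without Cd3 UMIs had an NK receptor sum of at least 2 and no Cd3 UMI (232 and 184 barcodes, median depths 2259.5 and 2832 UMIs). T cells without NK receptor UMIs had a Cd3 sum of at least 2 and none of the 3 receptors (1001 and 636 barcodes, median depths 2352 and 2742.5 UMIs). Because these classes were cut by sums of transcripts that neighbour the genes compared, each comparison is a description and not a test.

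The label was checked against 5 markers, of which Klrb1c belongs to the rule. Klra7, an inhibitory Ly49 receptor (Ly49G), stood at 367 CPM in control members against 13.1 CPM in all other kept barcodes, and at 401 against 9.47 CPM in the labelled knockout. Klrc2, the activating receptor NKG2C, stood at 353 against 19.99 CPM and at 263 against 15.4 CPM. Txk, a T-cell and NK-cell kinase, had 455 against 44.4 and 459 against 27.9 CPM, and Il18r1, a chain of the interleukin 18 receptor, 268 against 37.4 and 220 against 24.2 CPM. These 4 markers, which the rule did not use, were higher in members than in the pooled other barcodes of the same library. That pool includes the NK cells without Cd3 UMIs, in which 3 of the markers were no lower than in members. These NK cells held Txk at 652 and 463 CPM, Il18r1 at 459 and 262 CPM and Klrc2 at 500 and 299 CPM. Klra7 had no common order, at 379 and 321 CPM in NK cells. The 4 markers therefore did not set members apart from NK cells. After each barcode was thinned to 1000 UMIs, 25.7% and 29.9% of members held a Klra7 UMI and 36.6% and 27.6% a Klrc2 UMI, while no B cell did (1149 and 402 B cells, unthinned median depths 1573.5 and 1895 UMIs). The B cells were chosen to hold no Cd3 UMI and no UMI of Ncr1, Klrb1c or Klre1. Their lack of other NK receptor transcripts is therefore not an independent check.

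Markers of other cells were sparse in most members. The rule itself limited Cd79a, Cd79b and the C1q genes, so that part of the B-cell and macrophage lists was low by selection. B-cell markers gave 6 and 5 UMIs in all, with Ms4a1, Pax5 and Ebf1 at 0 in both libraries. Melanoma markers gave 19 and 20 UMIs, no more than 2 in any control barcode and 7 in 1 barcode of the labelled knockout. Neutrophil markers gave 35 and 2 UMIs. Macrophage and monocyte markers gave 415 and 115 UMIs, at 1210 and 352 CPM, but 94.0% and 75.7% of them lay in 5 barcodes, and 72 and 60 members had none. In the comparators defined above this list stood at 844 and 664 CPM (NK cells) and 908 and 633 CPM (T cells). The list includes Lyz2, the Cre locus, at 3785 CPM over all kept control barcodes and 9.22 CPM in the labelled knockout. Lyz2 gave most of the control members' UMIs of this list and none in the labelled knockout. The totals of this list are therefore not comparable between the libraries. MHC class II and dendritic markers were the largest of these lists, with 709 and 1193 UMIs at 2066 and 3653 CPM. Of these, 55.9% and 58.0% lay in 1 barcode, 97.0% and 97.9% in 5, and 79 and 65 members had none. Differences between the libraries in genes that the barcodes with macrophage markers could carry are given below with and without them.

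Members made up 1.44% of kept barcodes in the control (102 of 7086, exact Clopper-Pearson interval 1.18% to 1.74%) and 1.52% in the labelled knockout (87 of 5729, 1.22% to 1.87%). The ratio of the shares was 1.05, with a counting interval of 0.794 to 1.40, so the shares differed by less than counting error. Members were 6.53% and 7.18% of barcodes with at least 2 Cd3 UMIs, and 26.8% and 23.3% of those with at least 2 NK receptor UMIs. By the Cd3 and NK receptor sums alone, 114 control barcodes (1.61%) and 141 of the labelled knockout (2.46%) qualified, a ratio of 1.53. The condition on Pdcd1, Lag3, Havcr2 and Tigit was failed by 5 of the 114 and 38 of the 141, that on Mki67 and Top2a by 7 and 23, and that on the C1q genes by 0 and 18. The near-equal shares therefore hold for the members as defined and not for all barcodes with both kinds of transcript.

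Against T cells without NK receptor UMIs, members carried a broad set of NK receptors that the rule had not used. A gene is called higher or lower here when log2((CPM + 5)/(CPM + 5)) was at least 1 in size, in the same direction in both libraries, among genes with at least 20 UMIs over the compared classes in each library. Of 8232 genes, 45 were higher (0.547%) and 82 lower (0.996%). Of 19 measured NK receptors and adaptors outside the rule, 12 were higher in members and 0 lower, with median log2 ratios of 1.88 in the control and 1.98 in the labelled knockout beside -0.030 and -0.016 over all genes measured. The lectin-like receptors are encoded close together on chromosome 6, in GRCm38 from Klrb1c (128778485 to 128789215, minus strand) over Klre1, Klrd1, Klrk1 and Klrc2 to Klra1 (130363917 to 130386874, minus strand), and the Klra and Klrc genes are near-identical copies, so the split of reads among them is uncertain.

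Among the Ly49 genes, Klra7 (chromosome 6, 130218605 to 130233322, minus strand, GRCm38) stood at 367 CPM in control members and 24.7 CPM in control T cells, 14.9-fold higher (11.02 to 20.3). In the labelled knockout it stood at 401 and 46.0 CPM, 8.72-fold higher (6.64 to 11.5). Klra1 (Ly49A, inhibitory) was 12.4-fold and 8.69-fold higher, and Klra9 9.44-fold and 7.46-fold. Of the NKG2 genes, Klrk1, the activating receptor NKG2D, stood at 606 and 649 CPM in members and at 139 and 161 CPM in T cells. Klrc2 was 5.39-fold (4.25 to 6.82) and 3.11-fold (2.37 to 4.05) higher, and Klrc1, the inhibitory NKG2A, 3.57-fold and 4.47-fold. Klrd1, the CD94 chain that pairs with both, was 1.99-fold and 2.65-fold higher and missed the call in the control. Cd160, a receptor for MHC-like ligands and HVEM, was 4.63-fold and 4.58-fold higher, and Cd244, a receptor of the SLAM family, stood at 61.2 and 73.5 CPM against 14.7 CPM in the T cells of each library.

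Effector and cytokine genes of NK cells were higher in members than in T cells for a few genes only. Gzma, a granule protease, stood at 262 and 536 CPM in members and at 30.03 and 28.9 CPM in T cells, but 12 and 8 members held all of it and 1 barcode held 79 of the 175 UMIs in the labelled knockout. Xcl1, a chemokine that attracts cross-presenting dendritic cells, stood at 329 and 426 CPM in members and at 72.2 and 61.7 CPM in T cells. Il2rb, the receptor chain shared by interleukins 2 and 15, was 2.28-fold (1.85 to 2.79) and 2.04-fold (1.61 to 2.56) higher, at the limit of the call, and 0.96 in log2 with TMM factors, below it. Gzma was the sole higher gene among 14 measured cytotoxic effectors, Xcl1 among 8 cytokines and chemokines, and Il2rb among 16 cytokine receptors. With at least 3 Cd3 and 3 NK receptor UMIs (53 and 45 members) Gzma had no common direction in the libraries. With a mitochondrial limit of 5% (24 and 27 members) the smaller log2 ratio of the libraries went from 1.004 to 0.47 for Il2rb and from 1.75 to 0.64 for Cd244, which ended both calls. Ccl5, a chemokine of effector lymphocytes, stood at 4599 and 5131 CPM in members and at 3623 and 3815 CPM in T cells, which is below 2-fold. Outside the lists, the genes furthest above T cells were Spry2, an inhibitor of receptor kinase signalling (9.38-fold and 6.25-fold), Qrfp, which encodes a neuropeptide (3.99-fold and 4.00-fold), and Ctla2b, a cysteine protease inhibitor gene (3.59-fold and 3.36-fold).

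Several T-cell genes were lower in members than in T cells. Of 20 measured genes of the T-cell receptor, its coreceptors and proximal signalling, 5 were lower and 0 higher (Cd4, Cd8a, Cd8b1, Themis and Bcl11b), with median log2 ratios of -0.36 and -0.61. Bcl11b, a transcription factor of T-cell commitment, stood at 207 and 147 CPM in members and at 496 and 371 CPM in T cells, 2.40-fold (1.89 to 3.09) and 2.53-fold (1.89 to 3.46) lower. Themis, an adaptor of T-cell receptor signalling, stood at 43.7 and 30.6 CPM against 147 and 102 CPM. Cd8b1 stood at 111 and 55.1 CPM against 352 and 337 CPM, and Cd4 at 8.74 and 3.06 CPM against 128 and 83.7 CPM. The call of Cd8b1 was lost at the 5% mitochondrial limit, where its smaller log2 ratio went from -1.62 to -0.44, and in cells with Xist and no Y-linked UMI, where it was -0.66. The T-cell receptor chains themselves (Trac, Trbc1, Trbc2, Trdc and the Tcrg-C genes) were not analysed here.

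Some genes of naive and recirculating T cells were also lower in members. Of 10 measured genes of the naive and memory list, 3 were lower and 0 higher: Ccr7, Dapl1 and Lef1. Ccr7, the receptor that guides cells to lymph nodes, stood at 37.9 and 30.6 CPM in members and at 177 and 173 CPM in T cells, 4.66-fold (2.70 to 8.81) and 5.64-fold (3.03 to 11.9) lower. Dapl1 stood at 11.7 and 12.2 CPM against 99.01 and 69.5 CPM. Ctla4, an inhibitory receptor, stood at 5.83 and 15.3 CPM against 86.1 and 78.8 CPM. Igfbp4, the gene furthest below T cells outside the lists, had 0 and 1 UMIs in members and stood at 90.1 and 57.3 CPM in T cells, and Il6ra, the interleukin 6 receptor, at 20.4 and 9.19 CPM against 125 and 99.9 CPM. Iigp1, an interferon-inducible GTPase, had 1 and 2 UMIs in members and stood at 37.9 and 59.7 CPM in T cells. At the 5% mitochondrial limit the smaller log2 ratio of Dapl1 went from -2.11 to -1.02.

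Against NK cells without Cd3 UMIs, members had a like level of Klra7 and lower levels of a subset of NK receptors. Of 5709 genes, 35 were higher in members (0.613%) and 72 lower (1.26%). Klra7 stood at 379 and 321 CPM in NK cells, and the ratio of members to NK cells was 0.970 (0.776 to 1.21) and 1.25 (0.999 to 1.56), so its level did not differ beyond counting error. Klrc2 had ratios of 0.705 (0.567 to 0.872) and 0.880 (0.676 to 1.14). Of 23 measured NK receptors and adaptors, 10 were lower in members and 1, Klra6, higher, with median log2 ratios of -0.65 and -0.86 beside -0.11 and -0.080 over all genes measured. Klra4 (Ly49D), an activating Ly49 receptor, stood at 32.1 and 58.2 CPM in members and at 698 and 461 CPM in NK cells, 21.8-fold (12.1 to 44.0) and 7.93-fold (4.99 to 13.3) lower. Klra8 (Ly49H), the other well-known activating member, stood at 72.9 and 6.12 CPM against 510 and 380 CPM. Klra4 UMIs lay in 1 and 2 members and Klra8 UMIs in 6 and 1, against 38 and 39 members with Klra7. At the 5% mitochondrial limit the smaller log2 ratio of the libraries went from -2.73 to -0.93 for Klra8, which ended its call, and from -2.88 to -1.29 for Klra4.

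The remaining lower receptors were Klra3, Klrb1a, Klrb1b, Klrb1f, Klri2, Cd244 and the adaptors Fcer1g and Tyrobp. Klrb1b, an inhibitory NKR-P1 receptor, stood at 11.7 and 49.0 CPM in members and at 215 and 224 CPM in NK cells, and Klri2 at 32.1 and 24.5 CPM against 241 and 178 CPM. Tyrobp (DAP12) stood at 519 and 419 CPM against 1801 and 1728 CPM, 3.47-fold (2.96 to 4.09) and 4.12-fold (3.45 to 4.95) lower. Fcer1g stood at 665 and 854 CPM against 1486 and 1757 CPM. B cells, which should lack both adaptors, held Tyrobp at 496 and 744 CPM and Fcer1g at 570 and 1313 CPM, so the members' summed levels lay near that background in the control and below it in the labelled knockout. Of the B cells, 10.2% and 18.6% held at least 3 UMIs of macrophage markers other than Lyz2, against 2.94% and 5.75% of members. The C1q limit of the rule applied to members and not to B cells. The summed B-cell levels are therefore not a matched background. In thinned barcodes the share of members with a Fcer1g UMI was 29.7% and 40.2%, above the 6.70% and 12.9% of B cells and below the 75.0% and 78.3% of NK cells. For Tyrobp the shares were 21.8% and 24.1% of members, 8.44% and 13.2% of B cells and 79.4% and 76.7% of NK cells. At the 5% mitochondrial limit the calls of Fcer1g (from -1.04 to -0.46) and Klrb1f (from -1.44 to -0.93) were lost, and Fcer1g also missed the call with at least 3 Cd3 and 3 NK receptor UMIs (-0.75).

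Several mature NK genes were lower in members than in NK cells. Of 13 measured, 5 were lower and 0 higher: Eomes, Itga2, Irf8, Gzma and Prf1. Gzma stood at 2621 and 4023 CPM in NK cells, 9.99-fold (8.08 to 12.5) and 7.51-fold (6.44 to 8.80) above members. Eomes, a transcription factor of NK and memory CD8 cells, stood at 117 and 79.6 CPM in members against 410 and 259 CPM, and Irf8 at 105 and 76.5 CPM against 570 and 674 CPM. Prf1, the pore-forming perforin, had 15 and 6 UMIs in members and stood at 43.7 and 18.4 CPM against 141 and 195 CPM. Ccr2, a chemokine receptor, stood at 286 and 220 CPM against 914 and 645 CPM. Outside the lists, Car2, a carbonic anhydrase, and Itgax, the integrin CD11c, were furthest below NK cells, at 26.2 and 52.0 CPM against 269 and 244 CPM and at 29.1 and 27.6 CPM against 163 and 119 CPM. At the 5% mitochondrial limit the smaller log2 ratio went from -1.58 to -0.44 for Prf1, from -2.39 to -0.99 for Irf8, from -1.53 to -0.71 for Ccr2 and from -1.92 to -0.99 for Itgax, so these 4 calls were lost. That of Gzma went from -2.90 to -1.76 and held.

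A group of T-cell genes was higher in members than in NK cells. Of 15 measured genes of the T-cell list, 5 were higher and 0 lower: Cd8a, Cd5, Cd28, Lat and Bcl11b. Lat, the scaffold of T-cell receptor signalling, stood at 152 and 126 CPM in members and at 28.5 and 21.7 CPM in NK cells, 5.32-fold (3.06 to 9.66) and 5.79-fold (3.14 to 11.3) higher. Bcl11b was 8.71-fold (4.94 to 16.4) higher in the control, and in the labelled knockout it had 48 UMIs in members and 2 in NK cells. Il7r, the interleukin 7 receptor, stood at 469 and 404 CPM against 88.7 and 91.1 CPM, and Cxcr6, a chemokine receptor of tissue lymphocytes, at 146 and 144 CPM against 31.7 and 31.8 CPM. Outside the lists, the genes furthest above NK cells were the unnamed gene Gm8369, at 143 and 113 CPM against 3.17 and 10.1 CPM, and Camk4, a calcium-dependent kinase, at 78.7 and 101 CPM against 23.8 and 15.9 CPM. B cells held Gm8369 at 464 and 234 CPM. At the 5% mitochondrial limit the smaller log2 ratio went from 1.03 to 0.41 for Cd28 and from 2.09 to 0.997 for Il7r, which ended both calls, and from 2.22 to 1.51 for Lat.

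Bcl11b and Lat stood between NK cells and T cells in members, while Ikzf2 and Ly6c2 stood above both. Ikzf2 (chromosome 1, 69531214 to 69687245, minus strand, GRCm38), which encodes the transcription factor Helios, stood at 519 and 674 CPM in members. It stood at 168 and 81.0 CPM in NK cells and at 311 and 285 CPM in T cells. Members were 3.09-fold (2.42 to 3.97) and 8.32-fold (6.18 to 11.4) above NK cells, and 1.67-fold (1.41 to 1.96) and 2.36-fold (2.01 to 2.76) above T cells. At the 5% mitochondrial limit the smaller log2 ratio of Ikzf2 to NK cells went from 1.60 to 0.51, which ended the call, and the libraries had no common direction against T cells. Helios is also high in regulatory T cells. The Foxp3 condition left only barcodes with a Foxp3 UMI out of all 3 classes. Regulatory T cells without a captured Foxp3 transcript could therefore remain in them. Ikzf2 gave 178 of 231 and 220 of 273 member UMIs of the regulatory T-cell list. Ly6c2, a surface protein of memory CD8 T cells and monocytes, stood at 764 and 1292 CPM in members, at 222 and 218 CPM in NK cells and at 360 and 677 CPM in T cells. Ikzf2 was found in 46 of 102 and 55 of 87 members, with at most 11 and 19 UMIs in a barcode, and Ly6c2 in 71 and 66.

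**Figure D2:**
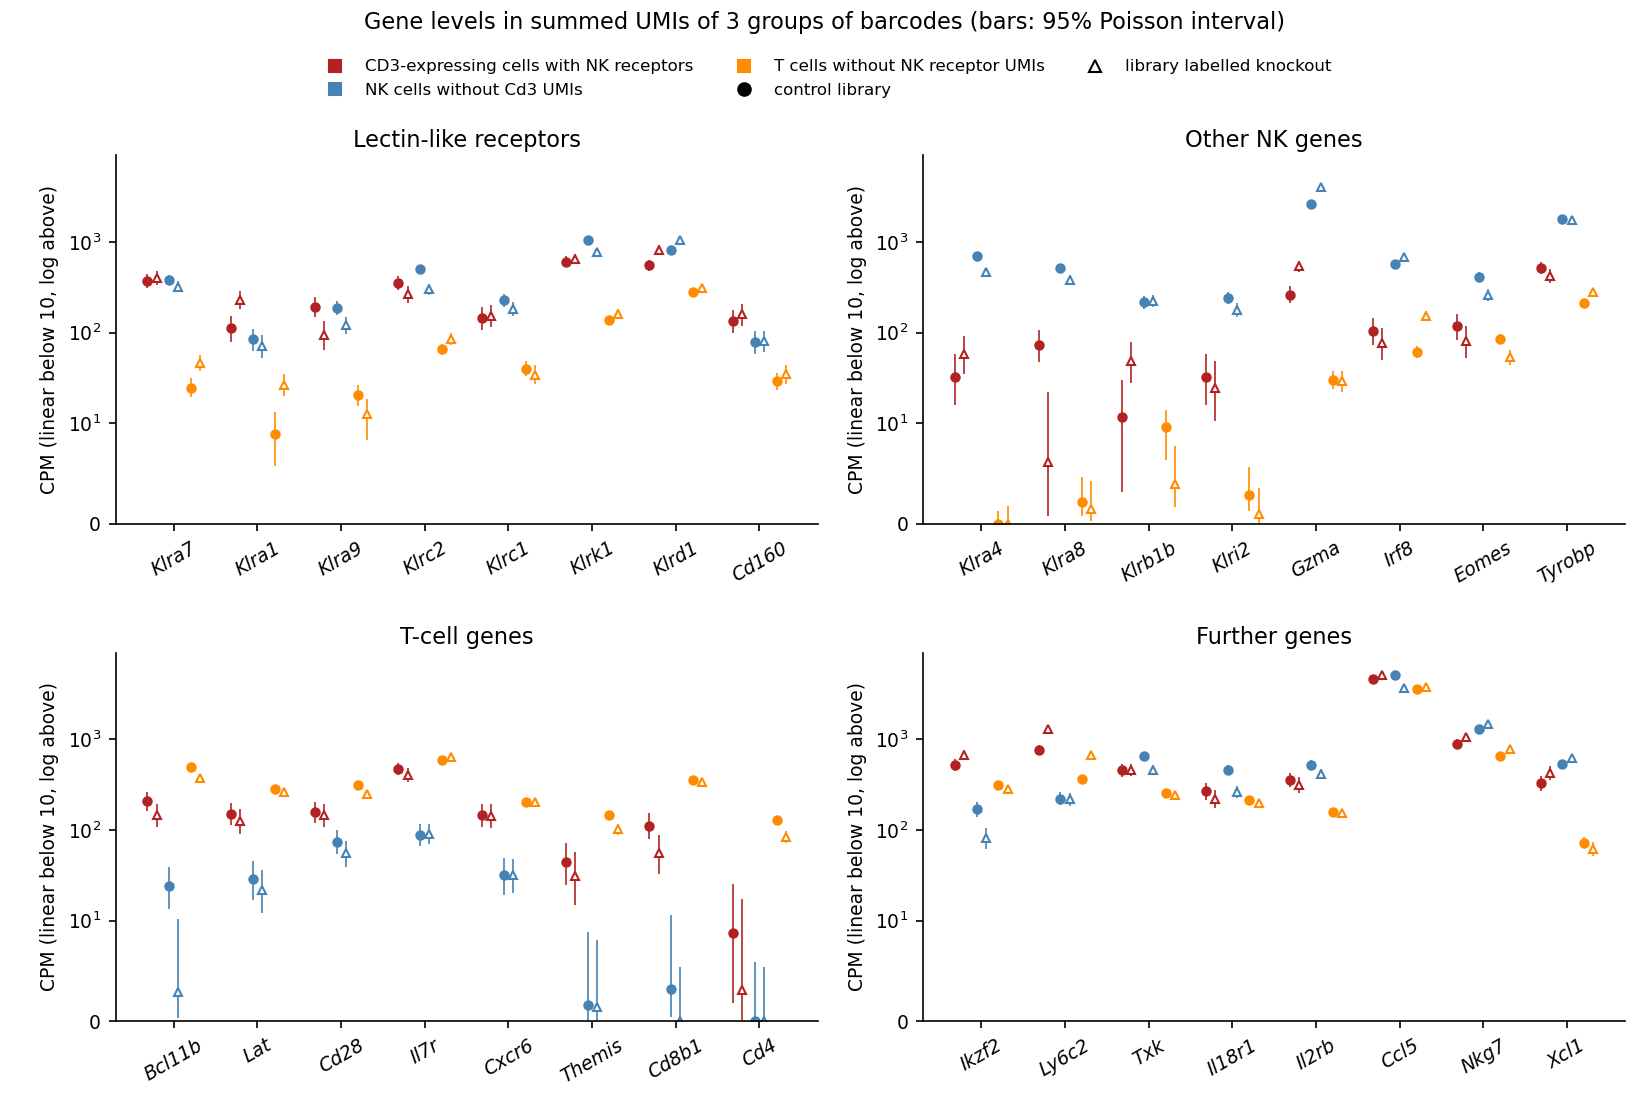
CPM of 32 genes (y axis, linear below 10 and logarithmic above) in the summed UMIs of CD3-expressing cells with NK receptors (red), NK cells without Cd3 UMIs (blue) and T cells without NK receptor UMIs (orange), circles for the control and triangles for the labelled knockout; bars are 95% Poisson intervals. Members lie with NK cells for Klra7, far below them for Klra4 and Gzma, between both classes for Bcl11b and Lat, and above both for Ikzf2 and Ly6c2.

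Of the list of innate-like T-cell and type 1 innate lymphoid genes, 2 of 10 measured were higher in members than in NK cells and 0 lower (Slamf6 and Cxcr6), and 1 of 17 was higher than in T cells (Itga1) and 3 lower (Rora, Slamf1 and Slamf6). Zbtb16, the transcription factor of invariant NKT cells, had 3 and 7 UMIs (8.74 and 21.4 CPM) in 3 and 5 members, and Il4 had 1 and 0. Icos, also high in those cells, stood at 43.7 and 82.7 CPM, below the 153 and 151 CPM of T cells. Il17a, the cytokine of interleukin 17-producing gamma-delta T cells, had 0 UMIs in both libraries. Itga1, an integrin of type 1 innate lymphoid cells and resident T cells, had 15 and 12 UMIs in members, at 43.7 and 36.7 CPM against 4.75 and 5.78 CPM in NK cells and 12.2 and 11.7 CPM in T cells. In thinned barcodes 4.95% and 5.75% of members held an Itga1 UMI, against 1.32% and 1.61% of T cells. Without the receptor chains, alpha-beta and gamma-delta cells cannot be told apart here.

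Ly49 transcripts were more frequent in members than in T cells and, at equal depth, at a lower share than in NK cells, with overlapping intervals. At least 1 of 9 Ly49 genes was seen in 63.7% of control members and 73.6% of members in the labelled knockout, in 73.7% and 70.7% of NK cells and in 7.59% and 12.7% of T cells. B cells, which should lack them and were chosen without UMIs of the rule's NK receptors, had one in 0.515% and 0.980%. Transcripts of 2 or more Ly49 genes were seen in 32.4% and 37.9% of members, against 55.6% and 51.1% of NK cells. Klra7 gave 40.1% and 43.2% of the members' Ly49 UMIs and 19.2% and 21.7% of those of NK cells. These shares are not thinned, and the median depths of members were above those of NK cells in each library. Thinned to 1000 UMIs, 46.5% (36.5% to 56.7%) and 50.6% (39.6% to 61.5%) of members had a Ly49 UMI, against 63.2% (56.5% to 69.4%) and 60.0% (52.4% to 67.2%) of NK cells and 5.07% and 6.77% of T cells.

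Most members had no coreceptor transcript. Cd8a or Cd8b1 UMIs without Cd4 were seen in 20 of 102 control members (19.6%, 12.4% to 28.6%) and 21 of 87 in the labelled knockout (24.1%, 15.6% to 34.5%). Cd4 without Cd8 was seen in 2 and 1, and neither in 78.4% and 74.7%. T cells without NK receptor UMIs had Cd8 in 42.6% and 43.9% and neither coreceptor in 33.7% and 39.9%. Of the members with Cd8 UMIs, 3 and 9 had a single one, so the groups are ranges of a count and not cell types. Members with Cd8 UMIs held Ccl5 at 11793 and 7988 CPM, against 3145 and 4390 CPM in those with neither coreceptor. Klra7 stood at 70.2 CPM (4 UMIs) in control members with Cd8 UMIs and at 430 CPM in those with neither, but at 433 and 415 CPM in the labelled knockout, so the libraries differ in this order.

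Ncr1 UMIs, part of the rule, were present in 20 control members (19.6%) and 19 of the labelled knockout (21.8%), and this split was made after values were seen. Klra4 UMIs were found in members with Ncr1 and in none without, at 116 against 0 CPM and 261 against 0 CPM, and 1 and 2 barcodes held them all. Klra8 stood at 253 against 4.03 CPM in the control and at 27.5 against 0 CPM in the other, in 5 and 1 members with Ncr1. Tyrobp stood at 1150 CPM in control members with Ncr1 and 278 CPM in those without, and at 1046 and 240 CPM in the labelled knockout. It was found in 15 and 11 members with Ncr1, and 1 barcode held 41 of the 76 UMIs in the labelled knockout. Irf8 stood at 222 against 60.4 CPM and 179 against 47.3 CPM. Lat had the opposite order, with 42.2 against 193 CPM and 82.6 against 138 CPM, as had Bcl11b with 158 against 226 CPM and 41.3 against 177 CPM. Cd3d and Cd3g belong to the rule, so their levels are a description only. Cd3d stood at 665 against 729 CPM and 771 against 890 CPM. Cd3g stood at 612 against 612 CPM in the control. In the labelled knockout Cd3g stood at 578 (416 to 781) against 878 (767 to 1001) CPM. Ikzf2 had no common order, at 623 against 479 CPM and 550 against 709 CPM. Members with Ncr1 were deeper, with medians of 4291.5 against 2455 UMIs and 3311 against 2958.5 UMIs per barcode.

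**Figure D3:**
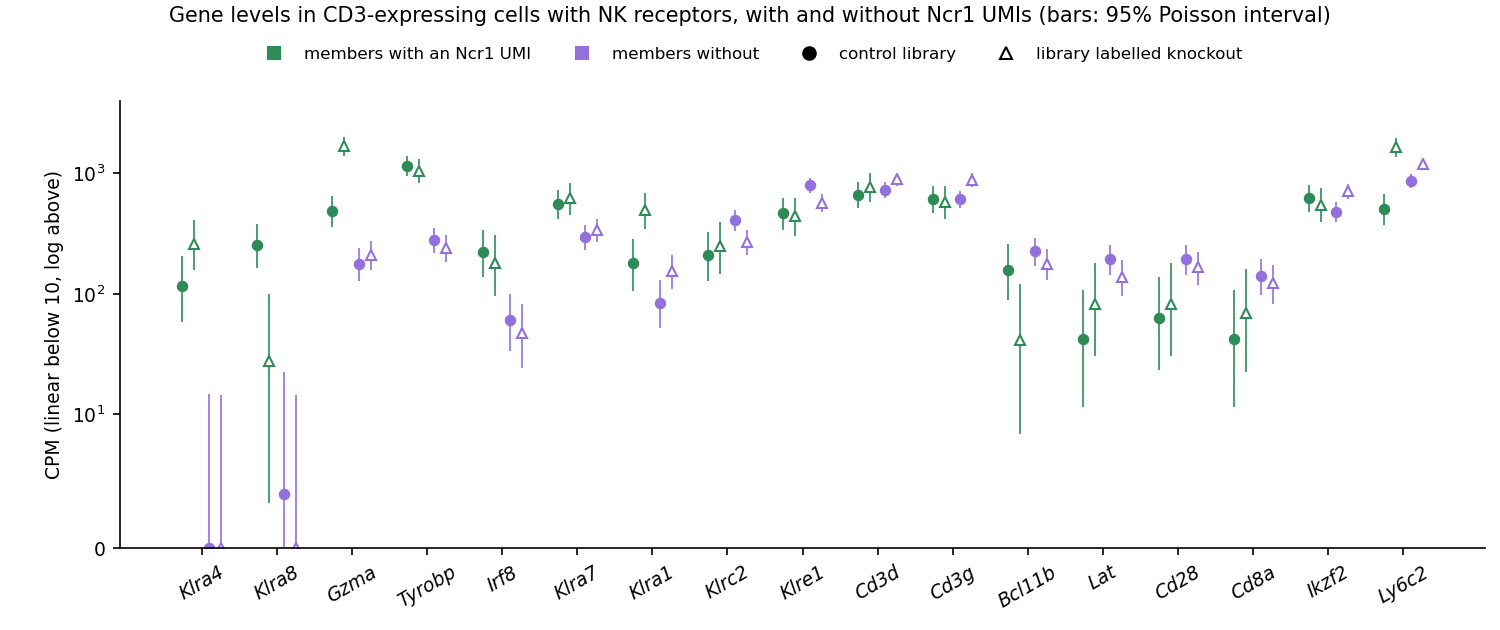
CPM of 17 genes (y axis, linear below 10 and logarithmic above) in members with an Ncr1 UMI (green, 20 and 19 barcodes) and without (purple, 82 and 68 barcodes), circles for the control and triangles for the labelled knockout; bars are 95% Poisson intervals. Klra4, Klra8, Tyrobp, Gzma and Irf8 are higher with Ncr1 in both libraries and Lat, Bcl11b, Cd28 and Cd8a lower, with overlapping intervals for several. Few barcodes set some of these levels: Gzma UMIs lay in 5 and 3 members with Ncr1, and 1 held 79 of 122 in the labelled knockout.

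Between the libraries, the targeted gene is given first. Usp18 (chromosome 6, 121245906 to 121270917, plus strand, GRCm38) had 9 UMIs in 9 control members and 13 UMIs in 8 members of the labelled knockout, at 26.2 CPM (12.0 to 49.8) and 39.8 CPM (21.2 to 68.1). Over all kept barcodes Usp18 stood at 14.5 CPM in the control and 63.3 CPM in the labelled knockout, which goes against the label, and a count at the 3' end does not check whether a floxed part was removed. Lyz2, which carries Cre, followed the label, at 3785 and 9.22 CPM over all kept barcodes and at 912 and 0 CPM in members. In members Lyz2 came from 14 control barcodes, of which 1 held 255 of 313 UMIs. Directions below are those of the labelled knockout over control.

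Of 4800 genes with at least 20 UMIs in members, 113 (2.35%) were at least 2-fold higher in the labelled knockout and 161 (3.35%) at least 2-fold lower. With TMM factors, another scaling, the counts were 134 and 121. The median over all genes was -0.057 on the log2 scale. The interferon-stimulated list had the most higher genes, 12 of 33 measured, with 1 lower and a median of 0.49. Isg15 stood at 20.4 CPM in control members and 276 CPM in the labelled knockout, Bst2 at 52.5 and 242 CPM, Irf7 at 34.98 and 138 CPM and Ifi27l2a at 152 and 383 CPM.

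Few barcodes carried this difference. In the labelled knockout, 5 members held at least 3 UMIs of macrophage and monocyte markers other than Lyz2, and these 5 held 44.5% of the members' interferon-stimulated UMIs (701 of 1577) but 15.4% of all their UMIs. One of them held 318 of these UMIs and 73 of the 90 Isg15 UMIs, and others held 199 and 154. The remaining ones held 22 and 8, at 2.02 and 3.80 per 1000 UMIs. The median of members with fewer than 3 such marker UMIs was 3.14 per 1000 UMIs. A high load was therefore not shared by all 5. In the control 3 such members held 13.3% of the interferon-stimulated UMIs and 13.1% of all UMIs. The doublet caller marked 3 of the 5 and 1 of the 3. Their medians of 10916 and 13490 UMIs stood above the 2926.5 and 2506 of the other members.

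Without these 8 barcodes, 4227 genes were measured, of which 75 (1.77%) were higher and 147 (3.48%) lower. The interferon-stimulated list then had 1 higher and 2 lower of 22 measured genes, 13 above 0, and a median of 0.038 beside -0.062 for all genes. Isg15 then stood at 20.1 and 21.7 CPM, a ratio of 1.08 (0.288 to 4.03), Irf7 at 30.2 and 47.0 CPM and Bst2 at 43.6 and 123 CPM, a ratio of 2.82 (1.45 to 5.82). With at least 3 Cd3 and 3 NK receptor UMIs the log2 ratio of Bst2 was 0.98, below the call. Per barcode, the median was 2.92 interferon-stimulated UMIs per 1000 UMIs in the control and 3.20 in the labelled knockout, and 2.92 and 3.14 without the 8 barcodes. The difference in the summed list thus rested on these barcodes, and the other members of both libraries overlapped. Which cells those barcodes hold was not tested.

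**Figure D4:**
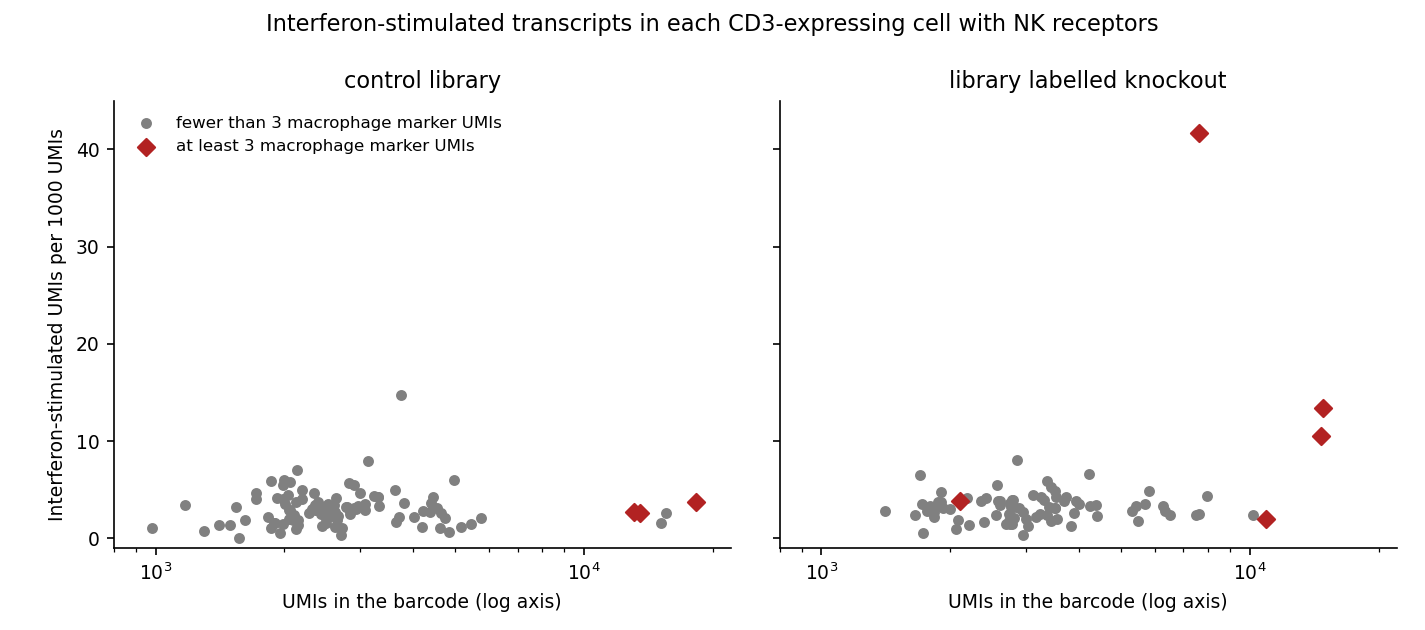
Interferon-stimulated UMIs per 1000 UMIs (y axis) against the UMIs of the barcode (x axis, logarithmic) for each member, left the control (102 barcodes) and right the labelled knockout (87 barcodes); red diamonds are members with at least 3 macrophage marker UMIs. The members without such UMIs lie at or below 14.7 in the control and 8.02 in the other, and 1 diamond of the labelled knockout lies at 41.7.

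The same removal changed the comparators. In NK cells without Cd3 UMIs the median of the interferon-stimulated list was 0.57 (38 genes), and -0.035 (29 genes) without such barcodes. In T cells without NK receptor UMIs it was 0.87 (44 genes) and 0.38 (42 genes), with 39 of the 42 above 0. Whether members differ from T cells in this response was not tested.

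MHC class I genes, which interferons also induce, differed by less than 2-fold. Of 15 measured, 13 were above 0 with a median of 0.25, and 12 with a median of 0.16 without the 8 barcodes. Psmb8, a subunit of the immunoproteasome, stood at 469 and 741 CPM, a ratio of 1.58 (1.29 to 1.94), and of 1.46 (1.18 to 1.81) without them. H2-K1, a class I heavy chain, stood at 2658 and 2881 CPM, a ratio of 1.08 (0.988 to 1.19). H2-Eb1, a class II gene of antigen-presenting cells, stood at 326 and 716 CPM with 5 and 9 members holding it, and at 10.1 and 188 CPM without the 8 barcodes. Of the MHC class II and dendritic list, 1 of 5 measured genes was higher with a median of 0.79, and 4 of 4 were higher with a median of 2.41 without the 8 barcodes. Class II transcripts thus remained in some members of the labelled knockout. Before the removal, 97.9% of the UMIs of this list in that library lay in 5 barcodes and 65 members had none. With at least 3 Cd3 and 3 NK receptor UMIs the log2 ratio of H2-Eb1 turned from 1.12 to -0.66. Of the defining dendritic markers, Xcr1, Clec9a, Fscn1 and Siglech were at 0 in the members of both libraries.

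Most NK receptors differed by less than 2-fold between the libraries. Of 20 measured, 3 were at least 2-fold higher (Klra1, Klrb1b and Klrb1f) and 2 lower (Klra8 and Fcgr3). Klra1 stood at 111 CPM in 20 control members and 230 CPM in 29 members of the labelled knockout, a ratio of 2.07 (1.39 to 3.15), which fell just short of the call without doublet calls (log2 ratio 0.96). Klrb1f had 14 and 30 UMIs, at 40.8 and 91.9 CPM. Klra8 had 25 UMIs in 6 control members and 2 UMIs in 1 of the other, at 72.9 and 6.12 CPM, a ratio of 0.0840 (0.00965 to 0.337). Klra7 had a ratio of 1.09 (0.849 to 1.41), Klrc2 of 0.747 (0.560 to 0.993) and Klrk1 of 1.07 (0.880 to 1.30), so the intervals of Klra7 and Klrk1 include 1 and that of Klrc2 does not. Ly6c2 was higher, with a ratio of 1.69 (1.45 to 1.98), which is below 2-fold, and Ikzf2 had a ratio of 1.30 (1.06 to 1.59). Among T-cell genes Cd6, a costimulatory receptor, was the sole gene called, lower at 96.2 and 39.8 CPM.

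Of 14 measured cytotoxic effectors, 1 was higher, Gzma, and 2 were lower, Gzmc among them. Without the 8 barcodes 0 were higher and 2 lower. Single barcodes held much of the Gzma and Gzmc UMIs. Gzma stood at 262 and 536 CPM, and at 302 and 336 CPM without the 8 barcodes, which held the top barcode of the labelled knockout. With at least 3 Cd3 and 3 NK receptor UMIs its log2 ratio turned from 1.02 to -3.18. Gzmc, a granzyme of strongly stimulated lymphocytes, had 562 UMIs in the control, 556 of them in 1 barcode, and 6 in the other. Of 15 dissociation stress genes, Jun, Egr1 and Hspa1b were lower and 0 higher. Jun stood at 324 and 144 CPM, Egr1 at 152 and 42.9 CPM, with 36 of 52 control UMIs in 1 barcode, and Hspa1b at 111 and 18.4 CPM, with 22 of 38. Without the 8 barcodes 1 of 12 measured stress genes, Egr1, was lower, and without doublet calls the log2 ratio of Egr1 went from -1.71 to -0.099.

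Outside the lists, Plac8, which encodes a small cysteine-rich protein, was furthest above control, at 184 CPM (14 members) and 784 CPM (32 members), a ratio of 4.27 (3.23 to 5.72), and of 2.97 (2.10 to 4.28) without the 8 barcodes. With at least 3 Cd3 and 3 NK receptor UMIs its log2 ratio was 0.95, below the call. Trappc4, a subunit of a vesicle-tethering complex, had 9 and 39 UMIs in 9 and 27 members, a ratio of 4.55 (2.17 to 10.7) with no more than 3 UMIs in any barcode, and of 4.58 (2.08 to 11.5) without the 8. Trafd1, an interferon-inducible regulator of innate signalling, had a ratio of 3.62 (1.68 to 8.64), and of 2.16 (0.920 to 5.45) without them. Rcbtb2 stood at 122 CPM in 28 members and 36.7 CPM in 11, 3.33-fold lower (1.72 to 6.95), Cyth1, an exchange factor for ARF proteins, at 102 and 33.7 CPM, 3.03-fold lower (1.504 to 6.61), and Abr at 105 and 36.7 CPM, 2.86-fold lower (1.45 to 6.03). These 6 genes were chosen for the size of their ratios among 4800 genes.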

How the data were processed

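Unnormalized UMI counts were deposited by the authors for every barcode, made with Cell Ranger 3.0.1 on mm10, per the submitters' processing notes; the annotation version is not given in the sources used here. Of 335 list genes, 12, among them the T-cell receptor constant genes, were not analysed here. UMIs were summed per library and class with no further normalization, expressed as CPM and compared as log2((CPM + 5)/(CPM + 5)) for genes with at least 20 UMIs; a call is a 2-fold difference, with no test. Intervals are exact Poisson (levels), Clopper-Pearson (shares) and conditional (ratios), and the ratio of shares has a log-normal one. Doublets were scored with Scrublet (scanpy 1.11.5), the highest scores marked at 0.8% per 1000 barcodes, and removed in an alternative only. B cells had at least 4 Cd79a and Cd79b UMIs, no Cd3 UMI and no UMI of Ncr1, Klrb1c or Klre1. The other conditions on genes in the rule were not applied to them. Python 3.11.15, scipy 1.17.1 and edgeR 4.0.16 (TMM factors only) were used, and coordinates come from GENCODE M21. The log2 ratios were tested on simulated counts with counting error only, which did not cover UMIs gathered in single barcodes. Genes were named from the lists or, outside them, as the largest ratios with at least 40 UMIs and no barcode over 25%. Members and lists were chosen with earlier results of these data known.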

Additional observations from a re-analysis of the deposited data

Results flagged for a closer look

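For 2 genes the ratio of members to NK cells without Cd3 UMIs had opposite directions in the libraries, and the difference was not tested. The log2 ratio of Gzmc was 4.16 in the control and -5.53 in the labelled knockout, and 556 of the 562 control UMIs of members lay in 1 barcode. The log2 ratio of Arg1, a macrophage enzyme, was -1.03 in the control and 1.39 in the labelled knockout, where 50 of its 51 UMIs in members lay in 1 barcode.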

How the results depend on the processing

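No paired analysis was possible because each group is 1 library. In the order higher in the labelled knockout, lower there, median of the interferon-stimulated list, higher and lower than NK cells, and higher and lower than T cells, the reported values were 113, 161, 0.49, 35, 72, 45 and 82. With a mitochondrial limit of 5% (24 and 27 members) 69 genes were lower, the interferon median was 0.94, 11 were above NK cells, 25 above T cells and 132 below. Without doublet calls the interferon median was 0.17. With at least 3 Cd3 and 3 NK receptor UMIs (53 and 45 members) 61 genes were higher, the median was 0.069, 14 were above NK cells and 159 below T cells, and 3 gene ratios reversed: Gzma to -3.18 and H2-Eb1 to -0.66 between the libraries, and Gzma against T cells to 0, with no common direction. With Xist and no Y-linked UMI (37 and 69 members) 183 genes were higher, 18 above and 25 below NK cells, 29 above T cells, and the ratio of shares was 0.793; with Y-linked UMIs alone the labelled knockout had 5 members, too few to run. With a pseudocount of 1, 136 genes were below T cells. With at least 50 UMIs the values were 28, 26, 0.38, 12, 32, 27 and 45; with no minimum they were 724, 958, 0.83, 102 and 158 against NK cells and 72 above T cells. With each cell weighted equally the interferon median was 0.20 and 112 genes were below NK cells. Chosen after seeing the data, leaving out barcodes with at least 3 macrophage UMIs gave 75 higher genes and a median of 0.038, and the 2 sums alone gave a ratio of shares of 1.53. Under these and the other settings run, 43 summary values stayed close to the reported one and 34 moved. Of the ratios of named genes, 700 stayed close, 74 moved and 3 reversed. Thinned to 1000 UMIs before the rule, 19 barcodes of each library were members (0.282% and 0.363%).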
